A study of Caenorhabditis elegans with 2 samples.

Results

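Molecular chaperones are proteins that help other proteins reach and keep their folded state. The Hsp70 and Hsp90 families act on many clients in an ATP-dependent cycle, DnaJ proteins (also called Hsp40) bring clients to Hsp70 and stimulate its ATPase, small heat shock proteins hold unfolding proteins without using ATP, and the CCT chaperonin is a ring of related subunits that folds actin and tubulin among others. In Caenorhabditis elegans some of these genes are expressed at all times, while others, such as the hsp-16 genes, are nearly silent until heat or another stress induces them through the heat shock factor HSF-1. The chromatin described here came from anti-GFP ChIP-seq of ROW-1 (F37D6.2), and all nuclear protein-coding genes whose symbol begins with hsp-, dnj- or cct- were taken, which gave 59 of 19973 genes. They comprise 22 hsp genes, 29 dnj genes (DnaJ proteins) and 8 cct genes (the subunits of the chaperonin).

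The study holds 1 group of 2 biological replicates. Its animals were hermaphrodites of strain OP510, genotype unc-119(tm4063) III with the transgene wgIs510, which adds a GFP-FLAG tag to the C terminus of ROW-1. They were whole L4 larvae taken 48 h after the release of L1 larvae that had been starved following bleaching, so the chromatin mixes all tissues of the animal. No heat shock or other stress treatment is given in the labels, no expression was measured, and control chromatin and strains with another tagged protein were not analysed here. A peak was counted at a gene where its summit fell within 500 bp before or 200 bp after any annotated 5' end of that gene on ce11. The optimal list of 1574 peaks holds those that passed the authors' reproducibility analysis, and the pooled list of 30000 calls also holds weaker calls and background. With 1 group there is no contrast between conditions and no test, so each count is set beside the same count over all nuclear protein-coding genes.

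An optimal peak lay at the promoter of 16 of the 59 genes (27.1%, Clopper-Pearson 95% interval 16% to 40%), against 4.58% of all nuclear protein-coding genes. With a narrower window (250 bp before and 100 bp after the 5' end) the shares were 13.6% and 2.83%, and with each summit given only to its nearest coding gene 11.9% and 3.54%. These 16 genes had 15 distinct peaks, because the neighbours hsp-16.2 and hsp-16.41 shared one. Peaks lay at constitutive genes for the main cytosolic and endoplasmic reticulum chaperones, at 3 chaperonin subunit genes, at 7 dnj genes and at 1 divergent pair of heat-inducible genes. Any call of the pooled list was present at 34 of the 59 genes (57.6%), against 29.2% of all genes. No call in the pooled list or in either replicate was found at 19 of the 59, against 12193 of all 19973 genes. Pooled ce11 calls were also counted at or above 60.5, the lowest signal of the longer ce10 optimal list. These calls lay at the same 16 genes (27.1%), against 6.06% of all genes. The signals of the ce10 and ce11 lists are not known to share a scale. The intervals cover counting error only, and the genes are not independent of each other where they share a promoter.

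**Figure D1:**
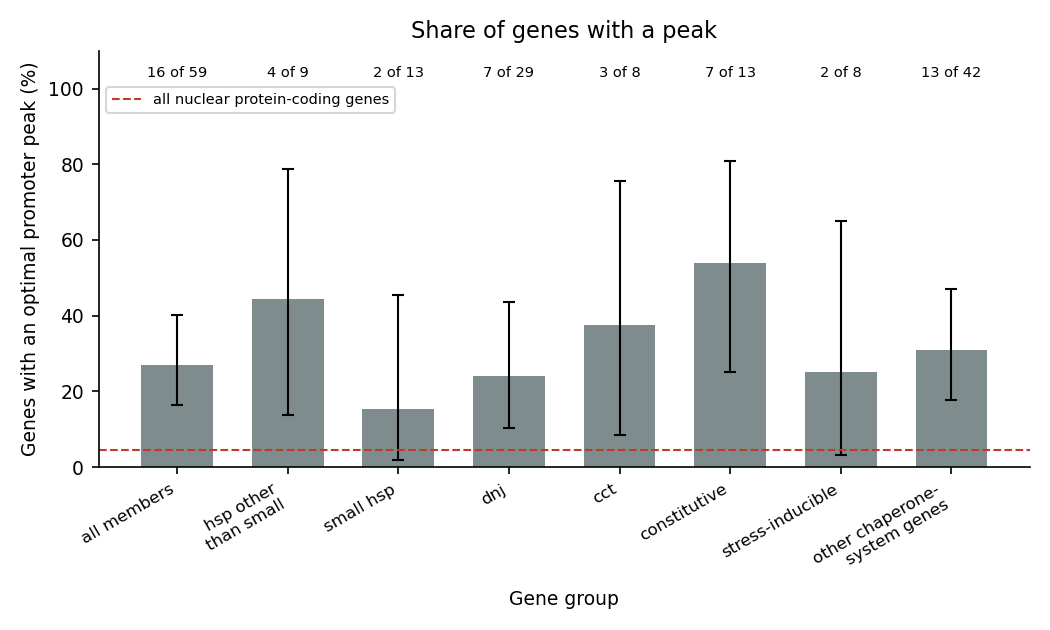
Percentage of genes with an optimal promoter peak in each group of chaperone genes and in the other chaperone-system genes, with the number of genes above each bar; error bars are Clopper-Pearson 95% intervals. The dashed line is the 4.58% of all nuclear protein-coding genes, and the constitutive group stands at 53.8% and the stress-inducible group at 25%. The small hsp and stress-inducible groups both include 4 hsp-16 genes whose promoter windows consist entirely of sequence repeated in the genome.

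The sequences under the summits show what these sites hold. Heat shock factor binds inverted repeats of the 5-base unit NGAAN, so the cores GAANNTTC and TTCNNGAA were searched on both strands and are called heat shock pairs here. Within 50 bp of the summit a heat shock pair was present at 5 of the 15 chaperone gene peaks, those of hsp-90, hsp-1, dnj-13, hsp-110 and hsp-16.2 with hsp-16.41. The 5 are printed from the RefSeq sequence of WBcel235, on the strand of the chaperone gene, as the 101 bp centred on the summit, or for the hsp-16 genes as 230 bp on the strand of hsp-16.41, from the hsp-16.2 5' end to the first 10 bases of hsp-16.41. Capitals mark the heat shock pairs.
hsp-90, chrV:14685728-14685828, plus strand: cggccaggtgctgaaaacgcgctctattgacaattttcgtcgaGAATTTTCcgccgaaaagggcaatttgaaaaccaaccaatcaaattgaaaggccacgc
hsp-1, chrIV:17278523-17278623, plus strand: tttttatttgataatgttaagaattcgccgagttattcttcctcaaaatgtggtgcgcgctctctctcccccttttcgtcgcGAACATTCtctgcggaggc
dnj-13, chrII:11545439-11545539, plus strand: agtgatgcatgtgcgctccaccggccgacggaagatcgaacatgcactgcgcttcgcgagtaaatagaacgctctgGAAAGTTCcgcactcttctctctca
hsp-110, chrIII:8447133-8447233, minus strand: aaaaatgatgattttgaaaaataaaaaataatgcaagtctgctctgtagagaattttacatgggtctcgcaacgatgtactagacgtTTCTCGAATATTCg
hsp-16.2 to hsp-16.41, chrV:1804958-1805187, plus strand: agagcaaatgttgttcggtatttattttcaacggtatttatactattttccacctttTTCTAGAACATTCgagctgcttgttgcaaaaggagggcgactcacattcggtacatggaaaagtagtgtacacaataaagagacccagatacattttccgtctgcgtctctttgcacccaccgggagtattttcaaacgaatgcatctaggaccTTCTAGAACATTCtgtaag
In hsp-90 the pair covers the summit itself. In hsp-110 both forms overlap, so that 3 GAA or TTC units follow each other in alternating orientation (TTCTCGAATATTC), and their nearest edge is 37 bp from the summit. At the hsp-16 genes the run TTCTAGAACATTC occurs 2 times. The copy at the hsp-16.41 5' end has its nearest edge 17 bp from the summit, which lies just beyond the printed sequence, and is the one counted within 50 bp; the copy on the hsp-16.2 side is 171 bp from it.

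Short sequences frequent at the other peaks of this experiment were also looked for. Among 1538 other optimal nuclear summits, the 6-mer GAGAGA (or its complement) was found within 50 bp of 29% and GACGCA within 18.9%. The flanks 250 to 300 bp away held them in 6.89% and 2.21%. These 6-mers were picked on the other peaks after the data were seen, by this same difference between summits and flanks. The difference is therefore not a separate result. At the chaperone gene peaks GAGAGA was present in 2 of 15, hsp-1 and dnj-13, and GACGCA in 1 of 15, hsp-3, against 23.1% and 22.8% of the 714 other optimal peaks at coding promoters. Within 100 bp GAGAGA was at 3 of 15 (20%) against 36% and GACGCA at 4 of 15 (26.7%) against 30.8%, and these differences rest on few peaks. The 714 are also among the 1538 peaks on which the 6-mers were picked, which can raise the shares of the 714. The hsp-3 summit and the cct-8 summit are shown with the 8 leading 6-mers of the other peaks in capitals, which only hsp-3 of this pair carries.
hsp-3, chrX:6092137-6092237, minus strand: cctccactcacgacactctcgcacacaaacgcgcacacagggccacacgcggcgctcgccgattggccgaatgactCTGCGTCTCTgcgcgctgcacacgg
cct-8, chrIV:1094309-1094409, minus strand: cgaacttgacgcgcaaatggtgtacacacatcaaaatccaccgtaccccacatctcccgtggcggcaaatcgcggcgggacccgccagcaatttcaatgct
Neither of these 101-bp stretches holds a heat shock pair, and the median GC content of the chaperone gene summits (48.5%, range 26.7% to 66.3%) was near that of the other summits (49.5%).

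A heat shock pair of either form was found within 50 bp of 33.3% of the chaperone gene summits, against 6.86% of the 714 other optimal peaks at coding promoters (49 of 714). Within 100 bp the counts were 10 of 15 (66.7%) and 119 of 714 (16.7%). The 5 added by the wider distance were cct-8, dnj-19, cct-7, cct-1 and dnj-12. Among weaker sites, the strongest pooled call of chaperone genes with no optimal peak had a pair within 50 bp in 4 of 18 (22.2%), at hsp-70, cct-5, dnj-5 and dnj-23, against 10.3% of 4467 such calls at other genes. These shares were computed after the data were seen and are a description: a match is not evidence of binding by any factor, and HSF-1 was not measured here.

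**Figure D2:**
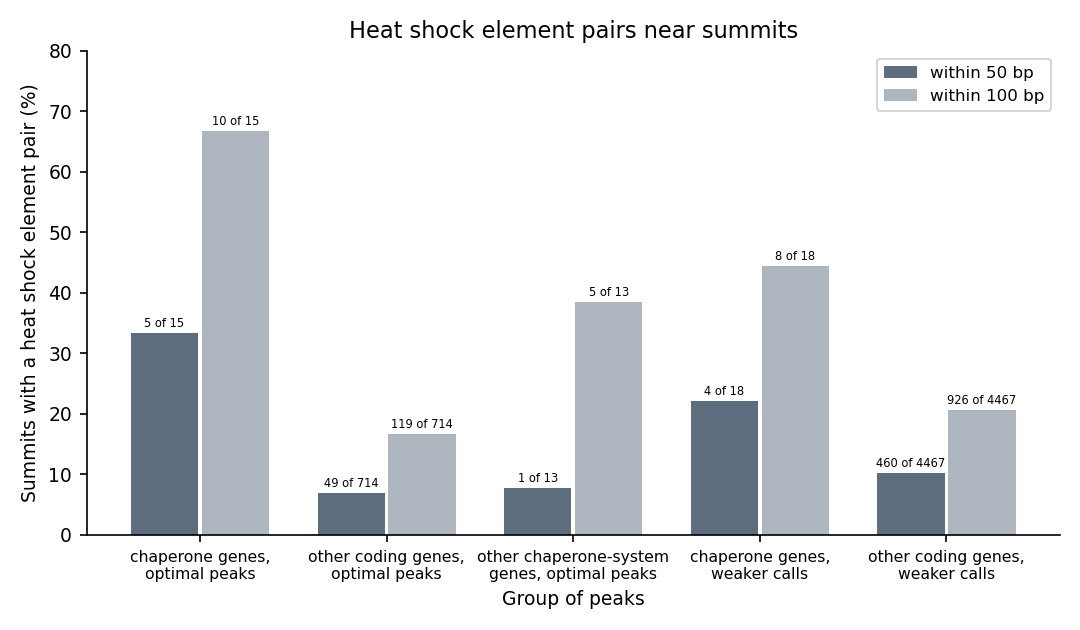
Percentage of summits with a heat shock element pair within 50 bp or within 100 bp, with counts above the bars, for optimal peaks and for the strongest weaker (pooled, not optimal) calls at promoters. The optimal peaks of chaperone genes stand at 33.3% and 66.7%, and those of other coding genes at 6.86% and 16.7%.

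Over whole promoter windows, taken at the outermost 5' end of each gene, the difference was smaller. GAANNTTC was present in 34 of the 59 chaperone genes (57.6%) and in 38.8% of all genes, and TTCNNGAA in 36 (61%) and 39.1%. Of the 16 genes with an optimal peak, 12 held GAANNTTC and 11 held TTCNNGAA. The same share over all genes with an optimal peak was not computed. The window of hsp-90 does not hold its summit, which lay 860 bp past the outermost 5' end. The windows of hsp-16.2 and hsp-16.41 overlap and hold the same pairs. TGACGTG, a core of the unfolded protein response element, was present in 8 of 59 windows (13.6%) against 6.15%, including hsp-3 and hsp-4, and within 50 bp of none of the 15 summits against 2.1% of other optimal peaks at coding promoters, but within 100 bp of 2 (13.3%) against 3.64%. The E-box CACGTG (10.2% against 12%) and the GATA site TGATAA (50.8% against 53.8%) were near their shares over all genes.

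Among the constitutive genes, hsp-90, which encodes the cytosolic Hsp90, had the strongest peak of the chaperone genes. Its signal was 469 in the pooled list, 256 in replicate 1 and 212 in replicate 2, and it ranked 49 of 1574. The summit lay within an intron of the longer hsp-90 transcript model, 382 bp ahead of the 5' end of the shorter one, and 293 bp from the 5' end of C47E8.4; counted from the outermost 5' end alone, hsp-90 had no optimal peak. The signals are values as the authors deposited them, and since the scales of different lists are not known to be comparable, ranks within a list carry the comparison between replicates.

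For hsp-1, the constitutive cytosolic Hsp70, the signal was 383 (rank 71), with 257 in replicate 1 and 127 in replicate 2. The ratio of replicate 1 to replicate 2, 2.03, was the highest among the 16 genes, though the peak ranked 57 and 116 in the replicate lists, near the top of both. Its summit lay 386 bp upstream, with the hsp-1 5' end the nearest coding one, although a noncoding RNA gene, F26D10.23, begins 160 bp from it.

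The endoplasmic reticulum Hsp70 (BiP) is encoded by both hsp-3 and hsp-4. The hsp-3 gene, the constitutive one, had a signal of 301 (rank 117; 187 and 123 in replicates 1 and 2), 63 bp upstream of its 5' end, the nearest of the upstream optimal summits of these genes. The stress-inducible hsp-4 had no optimal peak; its strongest pooled call, 22.8 (rank 11658), lay within the gene, 158 bp past an internal 5' end and 1474 bp past the outermost one, with 23.5 in replicate 1 and 12.1 in replicate 2. The strongest call at its outermost 5' end was 18.5. The 2 genes for one chaperone were thus far apart in the same list.

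The hsp-110 gene encodes a relative of Hsp70 that acts as its nucleotide exchange factor. Its signal was 242 (rank 182), with 126 (rank 243) in replicate 1 and 122 (rank 132) in replicate 2. The summit lay 274 bp upstream and 170 bp from the 5' end of rpn-3, a proteasome subunit gene on the opposite strand. The last constitutive hsp gene, hsp-75 (the mitochondrial member of the Hsp90 family), had no call within its window in any list.

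Of the 8 chaperonin subunit genes, 3 had an optimal peak. The cct-8 signal was 350 (rank 82; 191 and 160 in replicates 1 and 2), the cct-7 signal 255 (rank 162; 159 and 91) and the cct-1 signal 244 (rank 178; 144 and 97). The subunits assemble in one ring, yet the remaining genes were well below these 3 in both replicates. The pooled signals were 43.4 for cct-6, 36.7 for cct-5, 29.5 for cct-2 and 13.9 for cct-4, the last with no call in replicate 1, and cct-3 had no call in any list. Each of the 3 strong peaks lay nearer to another coding gene: cct-8 was 439 bp from the summit and Y55F3AR.2 182 bp, cct-7 was 306 bp and T10B5.4 133 bp, and cct-1 was 249 bp and mig-5 171 bp.

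In all, 7 of the 13 constitutive genes had an optimal peak (53.8%, interval 25.1% to 80.8%), including 4 of the 5 constitutive hsp genes, with a median signal of 301. Of the 8 stress-inducible genes 2 had one (25%, interval 3.19% to 65.1%), both from the same peak of signal 88.5. Another 4 of the 8 were hsp-16.1, hsp-16.11, hsp-16.48 and hsp-16.49, whose promoter windows consist entirely (100%) of 32-base stretches repeated in the genome. Over all genes, 0 of the 293 with windows repeated to at least 90% had an optimal peak. The part of this in the class shares was not tested. The intervals overlap, and the difference between the classes was not tested. Its direction rests on the window: in the narrower one, counts of 2 of 13 and 2 of 8 were found, a higher share in the stress-inducible class. By nearest coding gene they were 2 of 13 and 1 of 8. Without replicate 2, in the strongest 1574 calls of replicate 1, they were 7 of 13 and 0 of 8. The other 36 genes, all dnj genes and 7 hsp genes among them, were put in neither class, and hsp-6 and hsp-60 are given apart.

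The heat-inducible hsp-16 genes encode small heat shock proteins and lie as divergent pairs. The peak between hsp-16.2 and hsp-16.41 had a signal of 88.5 and ranked 1230, with 37.7 (rank 2111) in replicate 1 and 46.6 (rank 870) in replicate 2. It was the weakest of the 15 peaks, and the only one outside the strongest 1574 calls of a replicate. Its position was 241 bp upstream of hsp-16.2 and 20 bp downstream of the hsp-16.41 5' end.

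The other 4 hsp-16 genes, hsp-16.1, hsp-16.11, hsp-16.48 and hsp-16.49, had no call in the pooled list or in either replicate. Their promoter windows hold 3 copies of each form of the heat shock pair, more than the 2 of each in hsp-16.2 and hsp-16.41. All 4 windows consist entirely (100%) of 32-base stretches that occur more than once in the genome, against 3.43% for hsp-16.2 and 2.69% for hsp-16.41. Over all genes, 293 had windows repeated to at least 90%, and 0 of these had an optimal peak; reads from such copies may not be placed uniquely, the authors' handling of them is not given in the sources used here, and the part of this in the missing calls was not tested.

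The heat-inducible Hsp70 gene, hsp-70, had a pooled call of 53.9 (rank 2519), 40 bp upstream of its 5' end, with 23.6 in replicate 1 and 24.4 in replicate 2. Its call was below the lowest signal of the optimal list, 74.8, in a promoter window with 3 copies of GAANNTTC and 1 of TTCNNGAA. It was the strongest hsp call outside the optimal list.

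The mitochondrial chaperones are induced by mitochondrial stress and are also made without it. The hsp-6 gene (mitochondrial Hsp70) had a pooled call of 47.7 (rank 2983; 31.2 and 22.8 in replicates 1 and 2), 431 bp upstream. The hsp-60 gene (mitochondrial chaperonin) had no pooled call in its window and only a replicate 2 call of 11.2. A strong optimal peak lay just outside, 616 bp from its nearest 5' end, with a signal of 456 (rank 55), 247 in replicate 1 and 209 in replicate 2. It sat 197 bp from the 5' end of the divergent neighbour Y22D7AL.10, whose product RefSeq names the mitochondrial 10 kDa heat shock protein, in a gap of 812 bp between the 5' ends of the 2 genes. Y22D7AL.10 is not counted here because of its symbol, and hsp-60 because of the window.

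Of the small heat shock genes outside the hsp-16 group, hsp-25 had a pooled call of 22.7 (rank 11793), with 13.1 and 12.2 in replicates 1 and 2. That pooled call lay within the gene, 137 bp upstream of an internal 5' end and 3731 bp past the outermost one. The strongest call at the outermost 5' end of hsp-25 was 12.9. There was no call in any list at hsp-12.1, hsp-12.2, hsp-12.3, hsp-12.6, hsp-17 or hsp-43. An optimal peak with a signal of 114 lay 720 bp downstream of the 5' end of hsp-12.3, just past the 3' end of the gene. In all, 2 of 13 small heat shock genes (15.4%, interval 1.92% to 45.4%) had an optimal peak, and 4 of the 9 other hsp genes (44.4%, interval 13.7% to 78.8%). The 13 include the 4 hsp-16 genes with windows entirely of repeated sequence, whereas the highest repeated share of the 9 others was 4.93%, at hsp-1. The part of this in these shares was not tested.

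**Figure D3:**
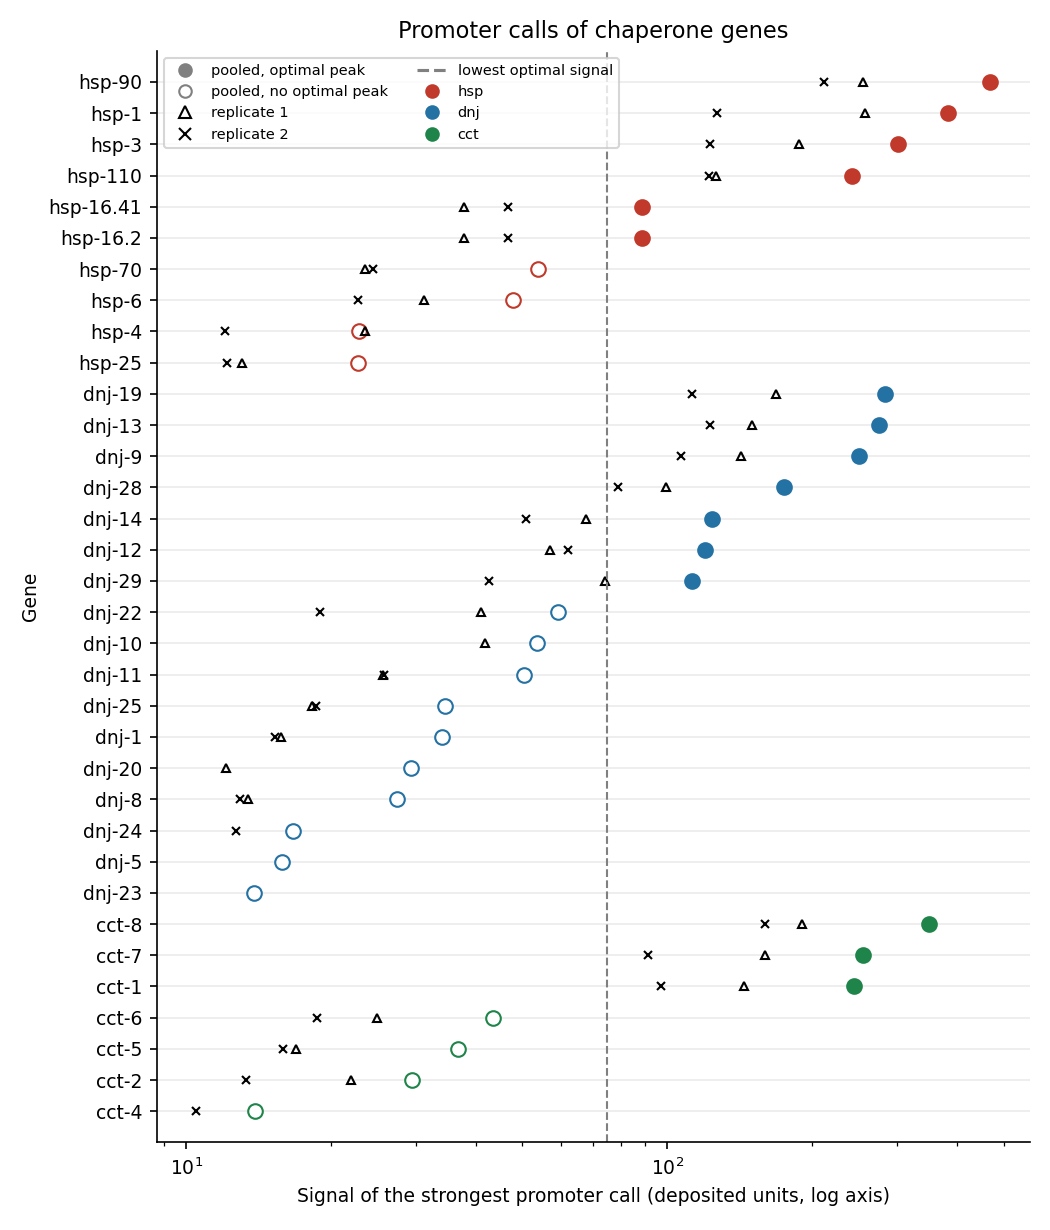
Signal of the strongest promoter call of each of the 34 chaperone genes with a pooled call, on a log axis, in the pooled list (circles; filled where the gene has an optimal peak) and in replicates 1 (triangles) and 2 (crosses). The 16 genes with optimal peaks run from 88.5 to 469 and the other 18 from 13.8 to 59.1, on either side of the lowest optimal signal of 74.8 (dashed line).

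The 29 dnj genes include 7 with an optimal peak (24.1%, interval 10.3% to 43.5%). The dnj-19 gene, whose product is close to the class A DnaJ proteins that work with cytosolic Hsp70, had a signal of 283 (rank 132; 168 and 112 in replicates 1 and 2). That summit was only 14 bp from the 5' end of nhr-47, a nuclear hormone receptor gene, and 382 bp from dnj-19. For dnj-13, a class B cytosolic DnaJ gene, the signal was 275 (rank 142; 150 and 123), 212 bp upstream. A noncoding RNA gene, F54D5.22, begins 25 bp from that summit, which lies in an exon of F54D5.22 and also within the gene dhgd-1. For dnj-9 the signal was 250 (rank 167; 142 and 107), 245 bp upstream, with no other gene's window covering the summit.

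The remaining 4 peaks of the dnj genes were weaker. The dnj-28 signal was 175 (rank 364; 99.2 and 79.1), 104 bp upstream, in a window with 34.3% of its 32-base stretches repeated in the genome. The dnj-14 gene, which encodes the cysteine string protein of synaptic vesicles, had 124 (rank 678; 67.8 and 51.0), with glit-1 nearer to the summit at 180 bp than dnj-14 at 351 bp. The dnj-12 gene, another class A member, had 120 (rank 729; 57.1 and 62.2) in a region shared with mtx-1. The dnj-29 gene, related to the Sec63 translocation protein of the endoplasmic reticulum, had 113 (rank 815; 74.4 and 42.5).

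Below the optimal list, the strongest pooled calls of dnj genes were 59.1 at dnj-22, 53.6 at dnj-10 and 50.3 at dnj-11. The dnj-22 call had 41 in replicate 1 and 19.0 in replicate 2, the dnj-10 call 41.7 in replicate 1 and none in replicate 2, and the dnj-11 call 25.7 in both. Pooled calls were also present at dnj-1, dnj-5, dnj-8, dnj-20, dnj-23, dnj-24 and dnj-25, with signals of 13.8 to 34.5. The strongest calls at dnj-20, dnj-24 and dnj-25 lay near internal 5' ends, 4568, 4435 and 4744 bp past the outermost ones. The other 12 dnj genes (dnj-2, dnj-3, dnj-4, dnj-7, dnj-15, dnj-16, dnj-17, dnj-18, dnj-21, dnj-26, dnj-27 and dnj-30) had no pooled call, and 5 of them had a weak call in 1 replicate only. No chaperone gene fell between 59.1 and 88.5.

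The 16 genes had a median optimal signal of 247, against 116 over all genes with an optimal promoter peak. Of the 16, 13 (81.2%) were in the stronger 787 peaks of the list, against 461 of all 914 genes with an optimal promoter peak (50.4%), and 6 (37.5%) in the strongest 157, against 90 (9.85%). The signals ran in a stronger set, from 242 to 469, with all 7 constitutive genes and the dnj-19, dnj-13 and dnj-9 genes, and a lower set from 88.5 to 175.

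All 15 peaks had a call in each replicate. The ratio of replicate 1 to replicate 2 signals had a median of 1.29 over the 16 genes (range 0.809 to 2.03), against 1.43 over the 900 genes with an optimal peak and a call in each replicate (quartiles 1.18 and 1.75). It was under 1 at hsp-16.2 with hsp-16.41 and at dnj-12. In the strongest 1574 calls of each replicate, all 16 genes were found in replicate 2 and 14 in replicate 1, with hsp-16.2 and hsp-16.41 missing.

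**Figure D4:**
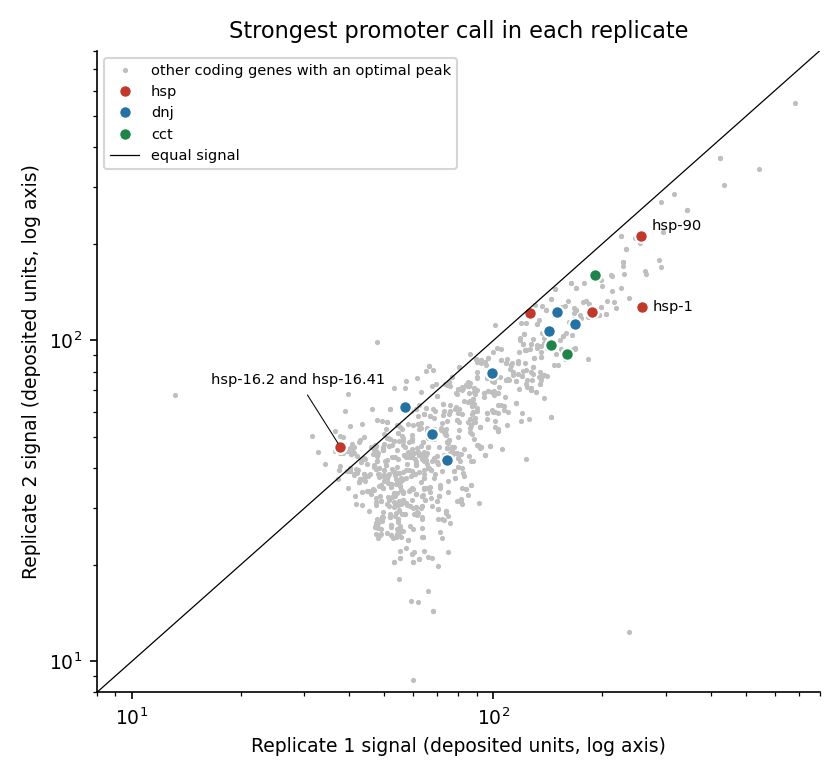
Signal of the strongest promoter call in replicate 1 and replicate 2, on log axes, for the 16 chaperone genes with an optimal peak (coloured by family) and other coding genes with one (grey). Points under the line have a higher signal in replicate 1; hsp-1 has the highest ratio of the 16 genes, 2.03, and hsp-16.2 with hsp-16.41 the lowest, 0.809.

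Summits at the chaperone genes lay rather far upstream. The median position was 261.5 bp upstream of the nearest annotated 5' end (from 439 bp upstream to 20 bp downstream), and 12 of 16 (75%) lay at least 200 bp upstream, against 50.1% of all genes with an optimal peak, whose median was 200 bp upstream. Of the 15 peaks, 10 also lay in the promoter window of a coding gene that is no chaperone gene of this set, and the hsp-16 peak lay in those of 2 chaperone genes. Of all 729 coding promoter peaks, 28.4% (207) lay in the windows of 2 or more genes. The bases are unlike, because a peak in several windows is more likely to be reached from a list of genes. By distance, 7 of the 15 were nearest to a chaperone gene when only coding 5' ends were counted. The 7 were at hsp-1, hsp-3, dnj-13, dnj-9, dnj-28, dnj-12 and hsp-16.41. At the 10 peaks with another coding gene's window, the chaperone gene and its neighbour cannot be told apart as the gene the site belongs to.

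**Figure D5:**
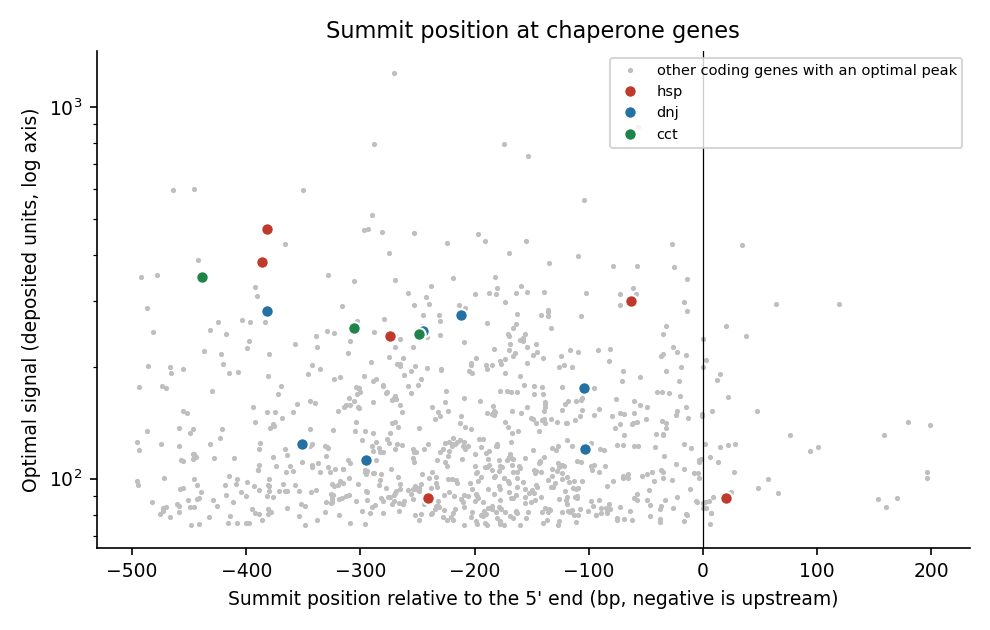
Position of the optimal summit relative to the nearest annotated 5' end (bp, negative is upstream) and its signal (log axis) for the 16 chaperone genes and other coding genes with an optimal peak (grey). Of the 16 chaperone genes 15 lie upstream, and 12 by at least 200 bp.

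The neighbourhood of the genes gave a related count. Where a coding gene on the opposite strand begins within 500 bp upstream, 7 of 16 chaperone genes had an optimal peak (cct-1, cct-7, dnj-12, dnj-19, hsp-110, hsp-16.2 and hsp-16.41), against 14.6% of 1840 genes so placed. Of these, hsp-16.2 and hsp-16.41 are each other's neighbour and share 1 peak. The 16 also include hsp-16.1, hsp-16.11, hsp-16.48 and hsp-16.49, whose windows consist entirely of repeated sequence. Where a gene on the same strand ends within 500 bp upstream, as in an operon or a tightly packed region, 1 of 11 chaperone genes had an optimal peak, dnj-9, against 2.85% of 3612. With neither within 500 bp, 8 of 32 had one, against 3.73% of 14521. Over all genes, too, the share was highest where the neighbour was divergent. Among those 8, the peaks of hsp-90, cct-8, dnj-14, dnj-28 and dnj-29 also lay in another coding gene's promoter window. The divergent neighbours of cct-8, dnj-14, dnj-28 and dnj-29 begin 620, 530, 573 and 527 bp upstream, just past the 500 bp limit. Peaks occurred on every nuclear chromosome, from 1 of 11 chaperone genes on III, which was hsp-110, to 5 of 14 on V.

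Other genes of the chaperone system were looked at as a list of 43 co-chaperones, endoplasmic reticulum folding genes, stress response regulators and quality control genes, of which 42 were found in the gene models. An optimal peak was present at 13 (31%, interval 17.6% to 47.1%), against the same 4.58%. The highest signal was at cdc-48.1 (739), an AAA ATPase that extracts ubiquitinated proteins, above every hsp, dnj and cct gene. Among 15 co-chaperone genes, peaks lay at bag-1 (230), an Hsp70 nucleotide exchange factor, at the prefoldin genes pfd-1 (185) and pfd-3 (76.9), and at sti-1 (85.5), which links Hsp70 and Hsp90. Of 9 endoplasmic reticulum folding genes, crt-1 (calreticulin, 211), pdi-6 (143), enpl-1 (the Hsp90 of that compartment, 137) and pdi-2 (79.2) had one.

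The regulators of the heat shock and unfolded protein responses had peaks at 3 of 12 genes, atf-6 (162), xbp-1 (140) and ubl-5 (104). The gene of the heat shock factor itself, hsf-1, had only a pooled call of 20. Among the quality control genes the mitochondrial protease gene clpp-1 (100.5) had a peak besides cdc-48.1. Near the 13 optimal summits of this list, a heat shock pair was present within 50 bp at 1 and within 100 bp at 5 (38.5%).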

How the data were processed

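Chromatin of 2 biological replicates of 1 group was analysed from narrowPeak lists on ce11: 1 call list of each replicate, 1 pooled list and 1 optimal list. Signal is the authors' deposited value per peak; its scale, the aligner, the peak caller, the reproducibility threshold and the depth were not stated in the sources used. Of the ce10 lists only the number of peaks and the lowest signal of the optimal list, 2157 and 60.5, were used, as an alternative. Every position comes from ce11, whose pooled calls fitted the chromosome lengths of WBcel235.

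Summits were assigned to Ensembl release 115 gene models, with pandas 2.3.3 and numpy 2.4.6 in Python 3.11.15; intervals of shares used scipy 1.17.1 at 95%. The model gives 2 pairs of hsp-16 genes the same symbols, and these were named by position from the RefSeq gene table of WBcel235. The assignment was tested on simulated summits and recovered 200 of 200 in each of 5 rounds.

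The genes and lists were chosen with earlier results of these data known. All hsp and cct genes were named, dnj genes with an optimal peak, the next 3 by pooled signal, the rest in groups, and the other chaperone-system genes with an optimal peak; hsf-1 and neighbouring genes were named after their values were seen. Where replicates are compared, nothing in the labels beyond their numbers says how separate the cultures were. Alternatives were other windows, peak overlap, the nearest coding gene, the outermost 5' end, stronger or longer lists and each replicate alone.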

Additional observations from a re-analysis of the deposited data

How the results depend on the processing

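The share of chaperone genes with an optimal peak, 27.1%, was 13.6% in a window from 250 bp upstream to 100 bp downstream, where hsp-90, hsp-1, hsp-110, cct-7, cct-8, dnj-14, dnj-19 and dnj-29 were lost, and 11.9% when each summit was given to its nearest coding gene only. The share of all genes, 4.58%, was then 2.83% and 3.54%. Elsewhere the chaperone share lay between 22% and 35.6%, while that of all genes was 6.08% in a window from 1000 bp upstream to 500 bp downstream, 5.25% by peak overlap of 1 bp, 4.27% from outermost 5' ends, 2.31% with the stronger 787 peaks, 7.98% with 2 times as many peaks, taken from the pooled list, and 6.06% above the ce10 limit, which was added after the data were seen. The count of constitutive genes, 7 of 13, was 2 in the narrow window and 2 by nearest gene, and 6 or 7 elsewhere. The count of stress-inducible genes, 2 of 8, was also 2 in the narrow window, where its share was above that of the constitutive genes. It was 1 by nearest gene, 0 with the stronger 787 peaks and 3 with 2 times as many peaks, which added hsp-70. The wider window and peak overlap added hsp-60 to the 16 genes.

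With 1 replicate left out, the calls are those of the other replicate and have not passed the reproducibility analysis. The chaperone counts equal those in its strongest 1574 calls. The chaperone share then ranged from 23.7% to 27.1%, and the share of all genes from 4.22% to 4.59%. The constitutive count stayed at 7, and the stress-inducible count ranged from 0 (without replicate 2, where hsp-16.2 and hsp-16.41 were lost) to 2. The median pooled signal of chaperone genes with a call, 56.5, was 34.5 by nearest gene and 53.9 to 73.8 otherwise. Under the nearest-gene rule 15 of the 34 genes lost their call. Apart from losses that follow from a smaller window or fewer peaks, the cause was not tested. No paired analysis was possible because there is 1 group only. Depth is unknown, so a missing call does not show that a promoter is unbound.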
